A study of Mus musculus with 6 samples.

Results

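The aryl hydrocarbon receptor (Ahr), its repressor (Ahrr), the partner proteins Arnt and Arnt2, and the receptor's target genes Tiparp and Nqo1 were followed through retinas that lack Nxnl2 and retinas that carry it. The members were all probe sets that the platform annotation assigns to exactly 1 of these 6 genes, which gave 15 of 45037 probe sets. Arnt had 5 of them, Arnt2 and Tiparp 3 each, Ahr 2, and Ahrr and Nqo1 1 each. The set was chosen by the log2 difference between knockout and wild type, already known, in which Ahrr stood among the larger ones, so the differences of the 6 genes are given as a description, without a test.

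The knockout retinas were homozygous for a deleted Nxnl2 gene (ko/ko), which encodes a thioredoxin-like protein of photoreceptors known as rod-derived cone viability factor 2, and the reference retinas were wt/wt. Each genotype had 3 arrays of mice of strain BALB/c AJ at post-natal day 40, from retina dissected free of the pigment epithelium. The labels do not describe the deleted allele or say how many animals a sample holds. Every SD given here is thus the spread between arrays. Every SE comes from the limma fit, which draws that spread towards the variance of all probe sets or genes. Both may be technical in origin. RNA was read on 1-colour Affymetrix arrays, and all values are RMA values on a log2 scale, in which a step of 1 is a doubling of signal.

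The receptor is a ligand-activated transcription factor of the bHLH-PAS family. Without ligand it is held in the cytosol by a chaperone complex around HSP90; with a ligand such as dioxin or a tryptophan metabolite it enters the nucleus, pairs with ARNT and binds DNA at sites with the core GCGTG. Among the genes it switches on is its own repressor, AHRR, which competes for ARNT and closes a feedback loop. TIPARP, a further target, is a mono-ADP-ribosyltransferase that modifies and restrains the receptor, and NQO1 is a quinone reductase that also responds to NRF2. Mice without Ahr are known for pigment epithelium degeneration with age.

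The regions around the start sites of Ahrr, Tiparp and Nqo1 are shown because these are the members known as targets of the receptor. Ahrr was higher in knockout and Nqo1 slightly lower, while knockout and wild type overlapped on the brightest Tiparp probe set. These values were known when the regions were chosen. The sequences are RefSeq's on build GRCm38.p6, from 250 bases before to 50 bases after the start site, 5′ to 3′ on the gene's strand, and capitals mark GCGTG on this strand or CACGC, the same letters on the other strand.
Ahrr, chr13:74292282-74292581, minus strand: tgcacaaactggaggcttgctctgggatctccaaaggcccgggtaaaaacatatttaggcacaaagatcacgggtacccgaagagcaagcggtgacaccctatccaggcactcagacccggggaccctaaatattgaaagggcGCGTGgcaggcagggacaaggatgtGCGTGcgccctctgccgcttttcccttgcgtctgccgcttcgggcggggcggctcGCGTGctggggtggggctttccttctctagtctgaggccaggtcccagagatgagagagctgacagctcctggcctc
Tiparp, chr3:65528197-65528496, plus strand: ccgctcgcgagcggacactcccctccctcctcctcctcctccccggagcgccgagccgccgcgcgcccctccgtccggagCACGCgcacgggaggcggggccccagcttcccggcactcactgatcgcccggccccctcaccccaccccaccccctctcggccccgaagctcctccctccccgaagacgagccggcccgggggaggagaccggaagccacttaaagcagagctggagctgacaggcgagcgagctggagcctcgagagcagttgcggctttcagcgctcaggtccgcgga
Nqo1, chr8:107403156-107403455, minus strand: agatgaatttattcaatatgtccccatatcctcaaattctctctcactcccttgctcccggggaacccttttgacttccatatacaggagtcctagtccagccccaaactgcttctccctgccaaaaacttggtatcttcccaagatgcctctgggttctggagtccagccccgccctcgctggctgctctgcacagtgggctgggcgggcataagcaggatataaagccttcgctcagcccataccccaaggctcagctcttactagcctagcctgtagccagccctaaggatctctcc
The Ahrr window held 3 matches, which begin at -107, -82 and -27 bases from the start site. The Tiparp window held 1 match, at -170, on the other strand, and the Nqo1 window held 0. Of the windows not shown, that of Arnt held 1 match and that of Arnt2 0. Over 32851 RefSeq windows of the same length, 32.4% held at least 1 match and 3.91% at least 3. These shares are not matched for the content of G and C, which can change how often GCGTG occurs. That content was 60.3% for Ahrr, 73.7% for Tiparp and 53.7% for Nqo1, where the median of all windows was 52.7%. A match is a description of letters and not a binding site.

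Nxnl2 itself read 3.78 and 3.73 in knockout replicates 1 and 2, against 11.42 ± 0.04 (SD, n = 3) in wild type, and 9.21 in the array labelled knockout replicate 3. That array also went against its tissue label. The mean level of 7 measured rod markers was 3.87 there and 13.07 to 13.20 in the other 5 arrays, and the mean level of 7 markers of olfactory and nasal mucosa was 12.76 there and 4.59 to 4.80 in the others. The comparison of genotypes below therefore uses knockout replicates 1 and 2 against the 3 wild-type arrays, and the array labelled knockout replicate 3 is described separately and then included. Pigment epithelium markers, which the dissection was meant to remove, lay above the control signal on all 5 retinal arrays for 7 of 7 genes. Their difference between knockout replicates 1 and 2 and wild type was below 0 for 7 of 7, with a median of -0.51; limma called 0 of them and 1 had an unadjusted p under 0.05. Their summed signal was 6018 and 8079 in knockout, against 6862 to 11015 in wild type, and their part in the members' values was not tested. As a floor for signal, each array's highest value among 27 probe sets for Bacillus genes was taken, which lay between 4.13 and 4.60. By that floor 12 of the 15 member probe sets were above background on all 5 retinal arrays, and the other 3 were a dim Arnt probe set and 2 dim Arnt2 probe sets.

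Ahrr was higher in retinas without Nxnl2. Its single probe set (1420796_at) read 8.33 and 8.42 in knockout replicates 1 and 2, against 7.49, 7.50 and 7.86 in the wild-type arrays. The groups did not overlap, and the lowest knockout value lay 0.47 above the highest wild-type value. The means were 8.37 ± 0.06 (SD, n = 2) in knockout and 7.62 ± 0.21 (SD, n = 3) in wild type, a log2 difference of 0.76 (limma SE 0.14), or 1.69-fold. By size of the signed difference Ahrr stood at place 20 of 18193 genes. Whether more RNA per cell or more cells of a type that makes Ahrr underlies such a difference cannot be told apart in whole retina.

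The receptor gene Ahr was high in 1 of the 2 knockout arrays. Its brighter probe set (1422631_at) read 9.54 and 9.12 in knockout replicates 1 and 2, against 9.00, 9.26 and 9.19 in wild type, so the groups overlapped, with a difference of 0.18 (SE 0.15). The dimmer probe set (1450695_at), annotated to the same sequence record, read 6.06 and 5.07 in knockout, against 4.97, 4.88 and 5.37 in wild type, a difference of 0.49 (SE 0.27). On both probe sets knockout replicate 1 was the highest of all arrays and knockout replicate 2 lay within the wild-type range. Without knockout replicate 1 the difference of the brighter probe set was -0.03.

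Knockout replicate 1 was also the array in which a list of genes linked to reactive glia and retinal stress stood out. This list was chosen with earlier results of these data known, so its values and counts are a description and no added evidence. The summed signal of its 7 genes (Gfap, Edn2, Fgf2, Lif, Serpina3n, Timp1 and Cp) was 1549 in knockout replicate 1 and 771 in knockout replicate 2, against 696 to 740 in wild type, on a linear scale. Such a sum is led by its brightest genes. Edn2 read 8.73 and 5.06 in knockout replicates 1 and 2, against 4.17 to 4.86 in wild type, and Cp 9.74 and 9.10, against 9.02 to 9.06. Gfap read 6.93 and 6.21, against 5.65 to 6.29. Of these 7 genes, 3 were above the control signal on all 5 retinal arrays and 1 was above it on none. The summed signal of 7 microglia markers was 1080 and 800 in the knockout arrays, against 707 to 781 in wild type. Ahrr was as high in knockout replicate 2 as in knockout replicate 1, with differences from the wild-type mean of 0.80 and 0.71. The part of reactive glia, microglia or retinal stress in the Ahr and Ahrr values was not tested. The summed signal of 7 vessel markers (Pecam1, Cdh5, Cldn5, Kdr, Tek, Ptprb and Vwf) was 1036 and 1146 in knockout replicates 1 and 2, against 896 to 914 in wild type. That sum is led by its brightest gene, Kdr, which read 9.55 and 9.74 in knockout, against 9.35 to 9.37 in wild type. The difference was above 0 for 7 of these 7 genes, with a median of 0.17. By limma 0 of them were called, 2 had an unadjusted p under 0.05, and 4 were above the control signal on all 5 retinal arrays. In all these lists the sums of both knockout arrays were above every wild-type array, but most single vessel and microglia genes overlapped. Higher without overlap were 5 of 7 genes in the list with Gfap, 2 of 7 microglia and 2 of 7 vessel markers, where 9.19% of all genes were. In the list with Gfap these were Edn2, Fgf2, Lif, Timp1 and Cp, and of them only Cp was above the control signal on all 5 retinal arrays. The lower Fgf2 knockout value was 3.05, against 3.03 for the highest of wild type, and for Lif 4.37, against 4.32. Gfap and Serpina3n, both above the control signal, overlapped. The median deviation of microglia markers from their wild-type means was 0.06 in knockout replicate 2 and 0.10 in wild-type replicate 2. The part of vessel cells in the Ahrr values was not tested. Skeletal muscle markers, by contrast, were high in knockout replicate 2, with a summed signal of 229 and 1063 in knockout replicates 1 and 2, against 239 to 338 in wild type. Lens markers were high in wild-type replicate 2, at 2407 and 2953 in knockout, against 18630 in that array and 2592 to 2766 in the other wild-type arrays.

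**Figure D1:**
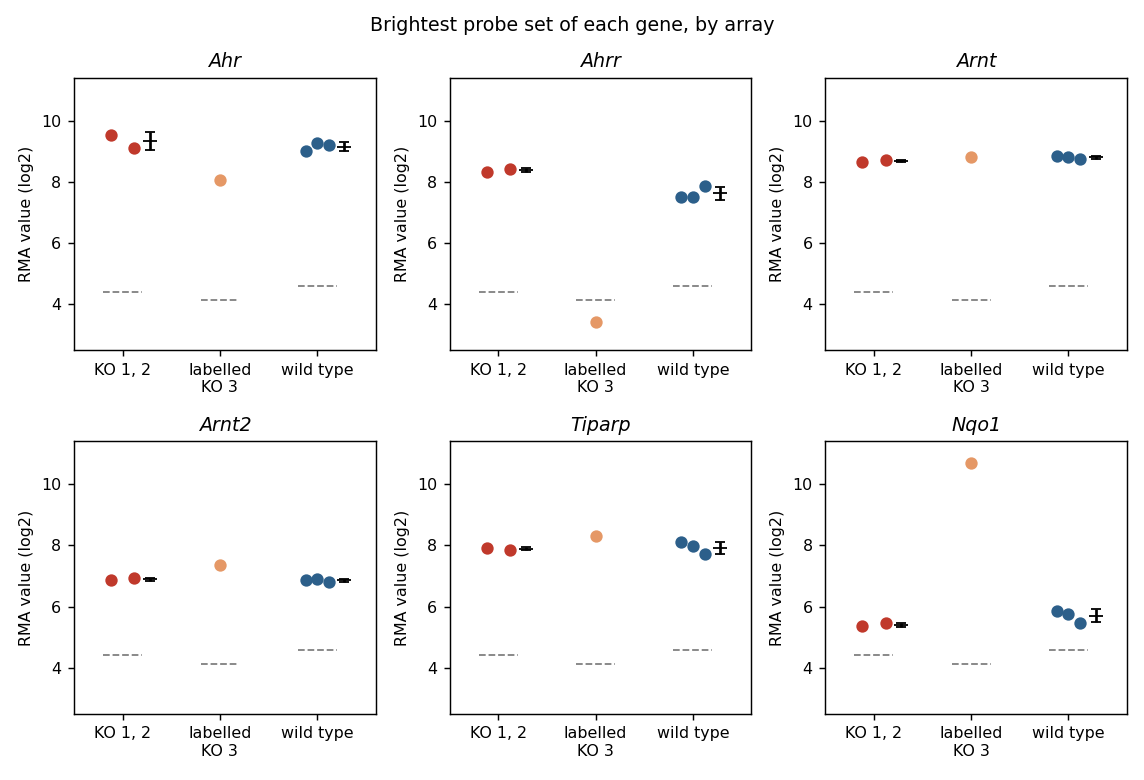
RMA value (log2) of the brightest probe set of each gene in knockout replicates 1 and 2, in the array labelled knockout replicate 3 and in wild type; points are arrays, black marks are mean and SD, and dashed lines are the highest Bacillus control signal of each set of arrays. Ahrr is the gene whose 2 knockout values (8.33 and 8.42) lie well clear of all wild-type values (7.49 to 7.86), while the array labelled knockout replicate 3 has Ahrr below the control line and Nqo1 at 10.68.

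The partner genes differed little between genotypes. Arnt, which also pairs with the hypoxia factor HIF1A, read 8.64 and 8.71 in knockout on its brightest probe set (1437042_at), against 8.83, 8.81 and 8.75 in wild type. These groups did not overlap, but the difference was only -0.12 (SE 0.10). The other 4 Arnt probe sets had overlapping groups and differences from -0.07 to 0.05, and the mean over all 5 gave -0.04. Arnt2, a paralog expressed mainly in neural tissue, read 6.87 and 6.93 in knockout on its brightest probe set (1434028_at), against 6.88, 6.90 and 6.80 in wild type, a difference of 0.04 (SE 0.10). Its SD over all 5 retinal arrays was 0.05, where the median SD of all genes was 0.11. The 2 dim Arnt2 probe sets lay below the control signal on every array, so their differences of 0.17 and -0.06 are not read here.

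Of the receptor's other targets, Tiparp did not separate the groups on its brightest probe set and Nqo1 was slightly lower in knockout. Tiparp read 7.92 and 7.86 in knockout (1426721_s_at), against 8.11, 7.97 and 7.72 in wild type, a difference of -0.04 (SE 0.13). Its other probe sets gave -0.17 (SE 0.10), with groups that did not overlap (5.85 and 5.86 in knockout, against 5.92 to 6.12 in wild type), and 0.06 (SE 0.15), with groups that did. Nqo1 read 5.36 and 5.45 in knockout (1423627_at), against 5.87, 5.77 and 5.46 in wild type, a difference of -0.29 (SE 0.14). The Nqo1 groups were only 0.0036 apart, because wild-type replicate 3 lay next to knockout replicate 2. The sign of the Nqo1 difference was thus opposite to that of Ahrr.

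Wild-type replicate 3 lay nearest to the knockout arrays for both genes. It had the highest Ahrr value of wild type and the lowest Nqo1 value, and on the brightest Tiparp probe set it was the lowest as well. Without that array the difference was 0.88 for Ahrr and -0.41 for Nqo1.

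Across genes, 1 of 6 members was higher in knockout without overlap (Ahrr), where 9.19% of all genes were, and 2 of 6 were lower (Arnt and Nqo1), where 7.27% of all genes were. Across probe sets the counts were 2 of 15 higher, 1 of them a dim Arnt2 probe set below the control signal, and 3 of 15 lower, where 8.40% and 7.86% of all probe sets were. The limma fit over 18193 genes called 2 genes at an adjusted p of 0.05 (0.0110% of those tested), and 0 of the 6 members were among them. The called genes were the deleted gene Nxnl2 itself, lower in knockout, and Erdr1, higher. Over probe sets the fit called 5 (0.0111%), with 0 of the 15 members among them.

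**Figure D2:**
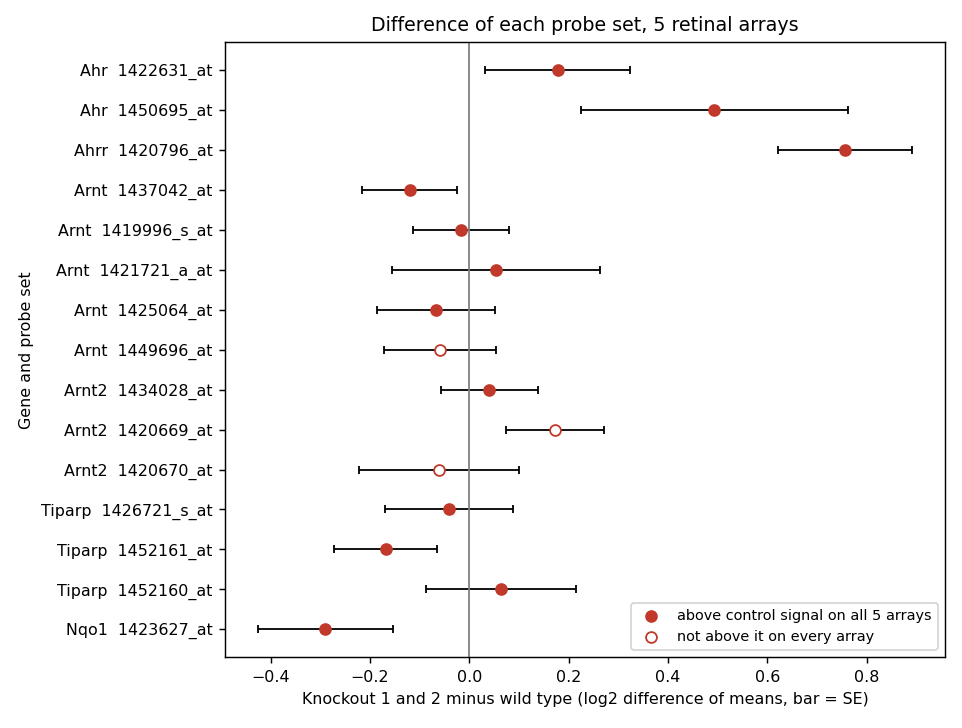
Knockout replicates 1 and 2 minus wild type (log2 difference of means, horizontal axis, bars are the limma SE) for all 15 probe sets of the 6 genes; open points are probe sets not above the control signal on every retinal array. Ahrr lies farthest to the right at 0.76, both Ahr probe sets lie right of 0 with wide bars, and Nqo1 lies farthest to the left at -0.29.

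Genes whose pattern over the 5 retinal arrays was most like that of Ahrr were sought by the root mean square difference of values taken relative to each gene's own wild-type mean. The 5 nearest of 18192 genes were Samd4, an RNA-binding repressor of translation (0.11 log2 units), Wwtr1, the Hippo co-activator TAZ (0.17), 1600012H06Rik (0.17), Tfe3, a transcription factor of lysosome genes (0.18), and the pseudogene Pisd-ps3 (0.19, on a probe set of the kind that can also bind related transcripts), where the median over all other genes was 0.50. Samd4 read 7.28 and 7.54 in knockout, against 6.65, 6.66 and 6.75 in wild type. In Samd4, Wwtr1, Tfe3 and Pisd-ps3 wild-type replicate 3 was the highest wild-type array, as it was for Ahrr, whereas in 1600012H06Rik wild-type replicate 1 was. Closeness to Ahrr was the criterion, so the differences of these genes are no added evidence. All 5 genes parted from Ahrr in the array labelled knockout replicate 3. Samd4 read 8.58 there, Wwtr1 9.16 and Pisd-ps3 9.57, above every retinal array, and Tfe3 and 1600012H06Rik lay -0.16 and -0.22 from their wild-type means, where Ahrr lay -4.19 from its own.

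**Figure D3:**
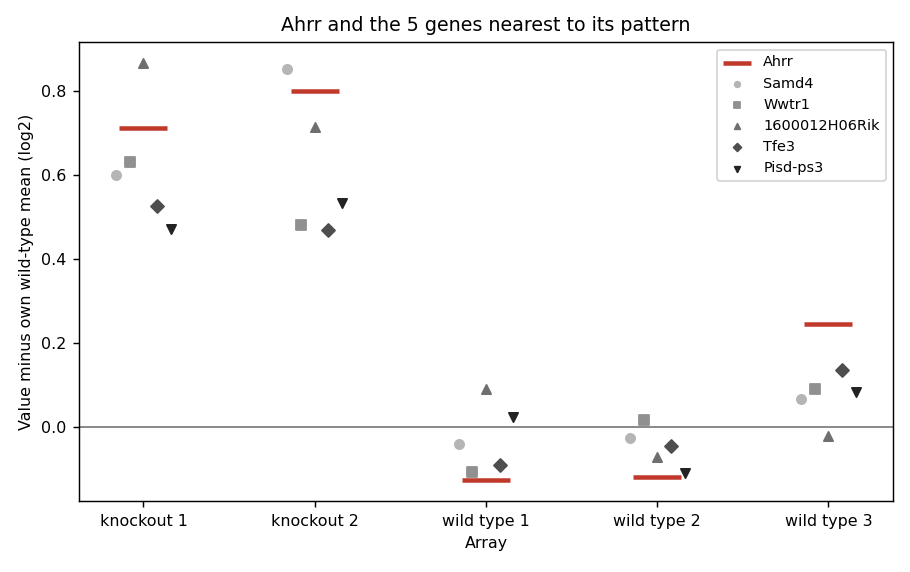
Value minus the gene's own wild-type mean (log2, vertical axis) in each of the 5 retinal arrays (horizontal axis) for Ahrr (red bars) and the 5 genes nearest to its pattern (grey symbols). All 6 genes lie at 0.47 or above in both knockout arrays, and Ahrr has the widest spread among the wild-type arrays.

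Ahrr lies on chromosome 13, as does the deleted gene Nxnl2, with 206 measured genes between them in the RefSeq order. By limma 0 of these 206 were called, 3 had an unadjusted p under 0.05, and their median difference was 0.0079. The 5 nearest measured genes on each side of Ahrr, looked at after its value was known, had differences from -0.25 to 0.25, with a median of 0.06. The next genes on each side were Exoc3, a subunit of the exocyst, and Pdcd6, a calcium-binding protein of vesicle transport. Exoc3 read 9.67 and 9.75 in knockout, against 9.56, 9.56 and 9.52 in wild type, and Pdcd6 read 9.17 and 9.23 in knockout, against 9.06, 9.15 and 8.96 in wild type. Both had groups that did not overlap, with differences of 0.16 (SE 0.09) and 0.14 (SE 0.10). Of the 10 neighbours 4 were higher without overlap (one of them, Cep72, below the control signal) and 1 lower, where 9.19% and 7.27% of all genes were, and limma called 0 of the 10, with 1 at an unadjusted p under 0.05 (E430024I08Rik, -0.25).

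**Figure D4:**
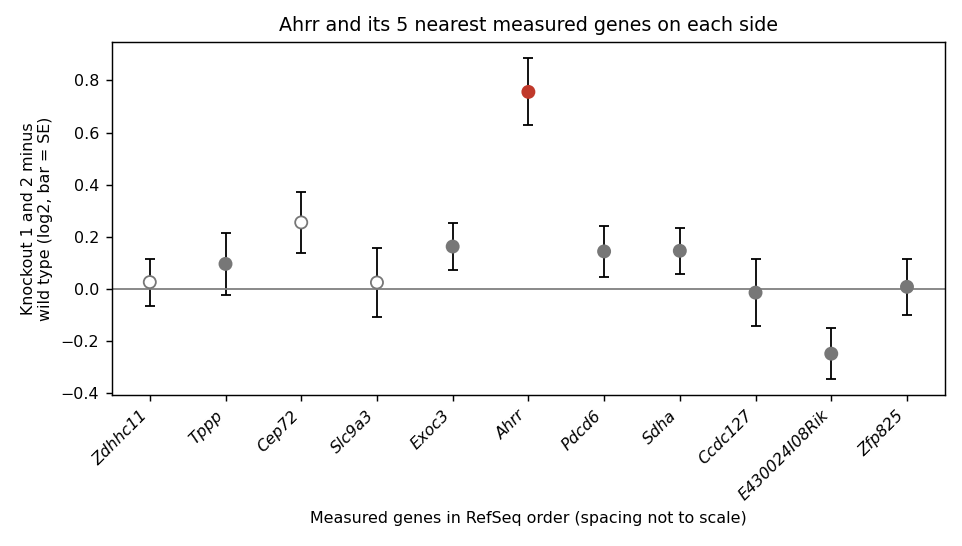
Knockout replicates 1 and 2 minus wild type (log2, vertical axis, bars are the limma SE) for Ahrr and the 5 nearest measured genes on each side in RefSeq order; open points are genes not above the control signal on every retinal array. Ahrr at 0.76 stands above all 10 neighbours, which lie between -0.25 and 0.25.

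The rest of the pathway was covered by 7 lists with 82 names, of which 72 had a probe set of their own, and 49 of these were above the control signal on all 5 retinal arrays. In knockout replicates 1 and 2 against wild type 0 of the 72 passed the limma test in either direction (0.0110% of all genes did). An unadjusted p under 0.05 was reached by 2 of them (2.78%), both lower, and by 3.45% of all genes. These were Macrod2 and Cyp1a1, and Cyp1a1 was above the control signal on none of the 5 retinal arrays. Their median difference was -0.01, against 0.00 for all genes.

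Of 15 measured genes in the list of those that the receptor is known to induce, 8 were above the control signal on none of the 5 retinal arrays. Among them were Cyp1a1 and Cyp1a2, the cytochromes P450 that serve as its classical readout, and Aldh3a1, an aldehyde dehydrogenase. Cyp1a1 read 3.37 and 3.37 in knockout, against 3.55, 3.55 and 3.61 in wild type, and Cyp1a2 averaged 3.99 ± 0.02 (SD, n = 2) in knockout and 3.78 ± 0.15 (SD, n = 3) in wild type. Differences at this level cannot be told from background. Gstm1, a glutathione transferase, was clearly present and read 7.23 and 6.98 in knockout, against 6.95, 6.89 and 6.86 in wild type (difference 0.21, SE 0.10, limma adjusted p = 0.999). Cyp1b1, the P450 of the family that was expressed and singled out after its values were seen, read 6.72 and 6.67 in knockout, against 6.71, 6.69 and 6.81 in wild type, a difference of -0.04 (SE 0.09, limma adjusted p = 0.999).

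The remaining lists had medians near 0 as well. The 3 measured genes of the cytosolic complex had a median difference of -0.03, with the chaperone gene Hsp90aa1 at 13.14 and 12.80 in knockout, against 12.93, 12.86 and 13.03 in wild type. Nuclear cofactors stood at -0.03 over 8 genes, and genes that form or remove tryptophan-derived ligands at 0.01 over 11 genes. Relatives of the bHLH-PAS family stood at 0.00 over 15 genes, where the period genes Per1 (-0.23, SE 0.12) and Per2 (-0.22, SE 0.11) had the smallest unadjusted p values and limma adjusted p = 0.999. Targets of NRF2, the other known inducer of Nqo1, stood at 0.04 over 12 genes, with heme oxygenase Hmox1 at 0.14 (SE 0.11). Among relatives of Nqo1 and Tiparp the median was -0.02 over 8 genes, and Macrod2, a hydrolase that removes ADP-ribose, read 6.78 and 6.70 in knockout, against 6.96, 7.08 and 7.06 in wild type (difference -0.29, SE 0.09, limma adjusted p = 0.999).

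In the array labelled knockout replicate 3 the same genes looked entirely different. Ahrr read 3.43, below that array's control signal of 4.13, against 7.92 ± 0.44 (SD, n = 5) in the other arrays. Nqo1 read 10.68, against 5.58 ± 0.22 (SD, n = 5), which is 34.3-fold more signal. Ahr read 8.06 and 4.31 on its probe sets, against 9.22 ± 0.20 and 5.27 ± 0.48 (SD, n = 5 each). Arnt on its brightest probe set read 8.79, against 8.75 ± 0.08, Arnt2 read 7.35, against 6.88 ± 0.05, and Tiparp read 8.32, against 7.91 ± 0.14 (SD, n = 5 each). Set against the wild-type mean, 1 of the 15 member probe sets lay over 1 log2 unit higher (12.0% of all probe sets did) and 3 lay as far lower (11.1% did). With 1 array there is no test of these values.

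Several enzymes with known ties to the receptor and to NRF2 were abundant in that array. Cyp1a2 read 11.93, Aldh3a1 9.78 and Cyp1a1 9.30, while none of the 3 was above the control signal on any retinal array. Over the list of receptor-induced genes, not all of which code for enzymes, 9 of 15 lay over 1 log2 unit above wild type and 0 as far below. Of all genes 15.8% and 11.5% did. Over the NRF2 list the counts were 7 of 12 above and 1 below, with Gstm2 at 11.07 and Ephx1, the microsomal epoxide hydrolase, at 11.44. The bHLH-PAS relatives had 2 of 15 above and 4 below, among those below Arntl, the clock partner protein BMAL1, at 6.88, and Hif1a at 10.44. Rod and nasal markers set this array apart as described above. Nxnl2 read 9.21 in it, against 3.78 and 3.73 in knockout replicates 1 and 2, so its genotype label is in doubt as well. Differences of tissue and of genotype cannot be told apart in it.

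**Figure D5:**
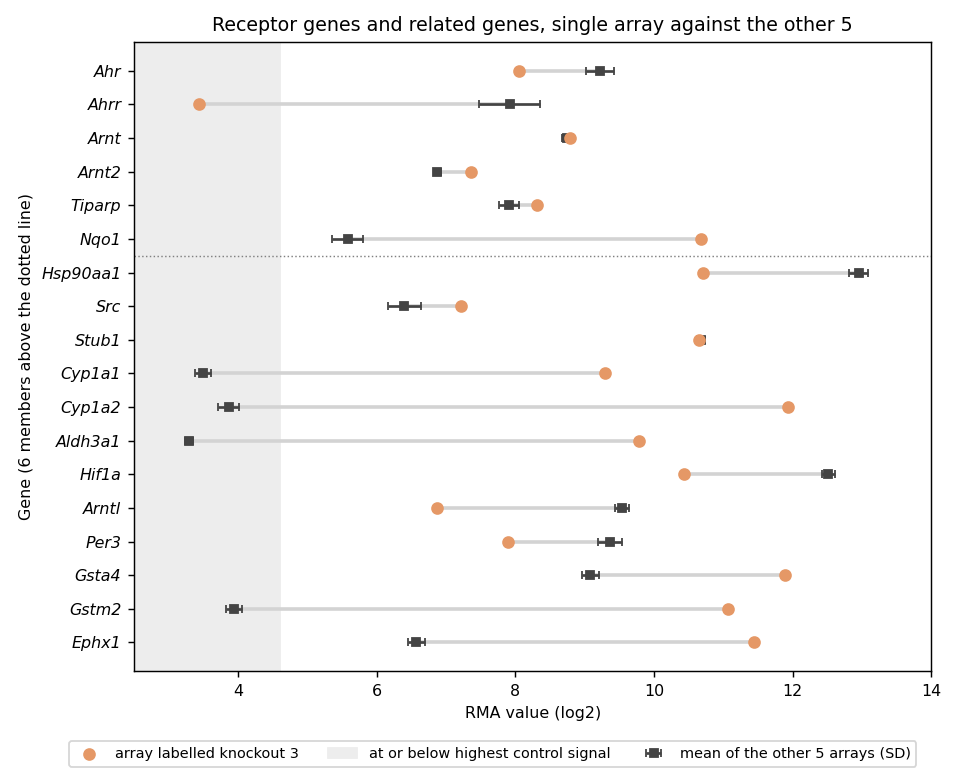
RMA value (log2, horizontal axis) in the array labelled knockout replicate 3 (orange points) and mean and SD of the other 5 arrays (dark squares) for the 6 genes, above the dotted line, and for related genes; the grey band is at or below the highest control signal, and only values of the same gene are to be compared. Ahrr is in the band in the single array and above it in the others, while Cyp1a1, Cyp1a2, Aldh3a1 and Gstm2 show the opposite.

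With all 6 arrays, as the series' design text sets them, the differences of the members followed that 1 array. The knockout-labelled arrays minus wild type gave -0.89 (SE 1.40) for Ahrr and 1.47 (SE 1.49) for Nqo1, both with the sign turned, and -0.24 (SE 0.39) for Ahr. Arnt stood at -0.08 (SE 0.09), Arnt2 at 0.19 (SE 0.16) and Tiparp at 0.10 (SE 0.18) on the brightest probe sets. In this comparison limma called 0 of 18193 genes (0% of those tested), with 132 at an unadjusted p under 0.05 (0.726%), and likewise 0 of the 6 members and 0 of the 72 pathway genes, of which 0 had an unadjusted p under 0.05.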

How the data were processed

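Total RNA of 6 retina samples was hybridised as biotinylated cRNA to 1-colour Affymetrix arrays, per the labels' protocols. The authors computed the deposited log2 values by RMA, as the submitters' processing notes name it; its version, chip definition and genome build are not given in these sources. The method brings arrays to nearly equal distributions (medians 5.77 to 5.80) and gives no detection calls, and the number of arrays limits the precision. The log2 values were used without further scaling.

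Of 45101 probe sets 64 controls were left out; 34945 of the rest name 1 gene, 932 several and 9160 none. Each gene was represented by its brightest probe set over 6 arrays (18193 genes, 18031 matched to RefSeq of GRCm38.p6 by Entrez identifier). Differences were fitted with limma 3.58.1 in R 4.3.3 (lmFit, eBayes, two-sided, Benjamini-Hochberg), over all probe sets for the members' SE and over all genes for other genes. The fits were tested on simulated data. The members and lists were chosen with earlier results of these data known. Named were all member probe sets, the 3 genes per list with the smallest p or the largest distance in the array labelled knockout replicate 3, and the 5 genes nearest to Ahrr, of which the text gives a selection. Deviations of same-numbered arrays from their group means had r = -0.07, -0.01 and -0.08 with 6 arrays, and -0.07 and 0.08 for replicates 1 and 2 with 5. This could not settle whether numbers mark pairs. With 6 arrays the knockout mean includes the array labelled knockout replicate 3, and with 5 the 2 knockout deviations mirror each other. Numbers were not used as pairs in the main fits. Figures were drawn with matplotlib 3.10.9.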

Additional observations from a re-analysis of the deposited data

How the results depend on the processing

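In the 5 retinal arrays the Ahrr difference of 0.76 stayed between 0.69 and 0.88 over 13 alternatives (variance trend with robust fit, array weights, renewed quantile normalization, median and 75th percentile centring, removal of dim probe sets, the mean of all probe sets, the replicate number as a block, and each array left out), the ends of that range being left-out arrays. Some of these settings could not move the Ahrr difference. The variance options and the removal of dim probe sets change only its SE, and the mean of probe sets is the same 1 probe set. With all 6 arrays the Ahrr difference was -0.89. With the replicate number as a block it was 0.88, the same as without wild-type replicate 3, which has no same-numbered knockout array among the 5. The block gave 3 called genes and 6 probe sets in the 5 arrays. None of the 6 members was called by limma in either comparison under any of these settings or at an adjusted p of 0.1. Over the same alternatives Ahr ranged from -0.03 (without knockout replicate 1) to 0.39 (without knockout replicate 2), Arnt from -0.15 to -0.04, Arnt2 from 0.01 to 0.07, Tiparp from -0.15 to 0.05 and, over 12 alternatives, Nqo1 from -0.41 to -0.20. Nqo1 has no value with dim probe sets removed, since it is among them. The mean of all probe sets left 1 called gene of 2 in the 5 arrays. Leaving out each array gave 1 to 8 genes and 4 to 11 probe sets in the 5 arrays, and 0 to 2 genes and 0 to 5 probe sets in the 6 arrays. In the 6 arrays array weights gave 2 genes and 5 probe sets, and an adjusted p of 0.1 gave 1 probe set. Where a single knockout array remains, the fit lends it the wild-type spread. The cause of these changes was not tested.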
